A study of Mus musculus with 11 samples.

Results

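Gene expression was compared between postnatal day 1 (P1) and postnatal day 12 (P12) in satellite cells sorted from mouse trunk muscle. The comparison used 8 of the 11 arrays of the series, taken by the age in their titles, with 4 arrays of P1 and 4 of P12. All were from Pax3GFP/+ mice on a C57BL/6J background, in which green fluorescent protein (GFP) is made from the Pax3 locus, and living cells were gated on GFP after propidium iodide staining. The GFP allele is thus carried at both ages, and no group without it was compared. The labels call the P1 and P12 cells proliferating satellite cells and describe arrays of the same age as biological replicates. They state neither the sex of the animals nor how many animals were pooled for an array, so the p-values measure the spread between these arrays, which may be partly technical. The other 3 arrays, of postnatal day 28, came from other muscles and took no part in the test. Each gene is represented by 1 probe set of an Affymetrix mouse whole-genome expression array, and each level is a log2 value made by robust multi-array average (RMA), so that a change of 1 is a doubling.

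Satellite cells, the resident stem cells of skeletal muscle, lie between the fibre and its basal lamina. Around birth they divide and fuse into growing fibres, and over the following weeks most of them leave the cell cycle and settle as a quiescent reserve. Pax3 and Pax7 are the transcription factors that mark the lineage, while Myf5, Myod1 and Myog act in succession as cells commit and differentiate. In the same weeks the fibres exchange embryonic and perinatal myosins for adult fast ones, motor innervation is refined, and fetal growth programmes are shut down in many tissues.

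The arrays resembled each other closely, with median log2 values from 5.51 to 5.58 and correlations of 0.981 to 0.994 within an age and 0.973 to 0.986 between the ages. Replicates 1 and 2 of both ages differed from replicates 3 and 4 in 3' bias: the 3' control probe set of Gapdh exceeded the 5' one by a log2 value of 2.59 to 3.05 in the former and 1.32 to 1.69 in the latter. Replicates 1 and 2 form array set 1 and replicates 3 and 4 array set 2, and the test for age held the array set as a block. The set itself went with 1643 genes at an adjusted p under 0.05 (216 higher and 1427 lower in array set 2). Xist, the RNA of the inactive X chromosome, read 11.29 in P1 replicate 1, 5.82 to 5.96 in P1 replicates 2 to 4 and 10.59 to 11.70 at P12, so that a difference in sex cannot be told apart from age. P1 replicate 1 stood apart from the other P1 arrays in many genes, as given beside the results it touches.

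Markers of the labelled cell type were well above background at both ages. For Pax3 this is largely set by the sort, which gated on GFP made from the Pax3 locus. Pax7 was at 11.10, 10.95, 10.42 and 10.53 in P1 replicates 1 to 4 and at 10.81, 10.95, 10.45 and 10.91 at P12. Its groups overlapped, and the change was 0.03 ± 0.13 (SE; adjusted p = 0.913, limma). Pax3 lay between 8.05 and 8.60 at P1 and between 8.43 and 8.88 at P12 (change 0.31 ± 0.13, adjusted p = 0.165). With the mean of its 3 probe sets in place of the brightest, Pax3 passed the test. Myf5 (-0.09 ± 0.10), Myod1 (0.51 ± 0.22), the cadherin Cdh15 (0.30 ± 0.13), the integrin Itga7 (0.36 ± 0.13) and Vcam1 (0.37) did not pass either. Itga7 passed when P1 replicate 1 was left out. In contrast, Sdc4 rose by 0.63. That call was lost without P1 replicate 3, P1 replicate 4 or P12 replicate 4 and after a further quantile normalization. Calcr, given below with the quiescence genes, rose as well.

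Between P1 and P12, 1531 of 18193 genes rose (8.42% of those tested) and 631 fell (3.47%) at an adjusted p under 0.05. Most of these changes were small: 171 of the genes that rose and 115 of those that fell changed by a log2 value of 1 or more, and the median size was 0.585 and 0.611. The 4 P12 arrays all lay above the 4 P1 arrays in 1335 genes (7.34%) and all below in 833 (4.58%). Every called gene changed in the same direction within array set 1 and within array set 2. The call itself largely fixes this, because the test takes the age change over both sets. A gene with opposite changes would rarely pass. No gene (0) passed a test of whether the change differed between the sets, with 1199 genes at an unadjusted p under 0.05 (limma). The balance of directions depended on scaling: 70.8% of called genes rose on the deposited values, against 46.0% after a further quantile normalization (835 rose and 980 fell). The calls also depended on single arrays, since leaving out P1 replicate 3 gave 600 that rose and 337 that fell, P1 replicate 4 gave 674 and 328, P12 replicate 1 gave 864 and 378, and P12 replicate 4 gave 751 and 414. Of the genes called with all 8 arrays, 539 that rose and 260 that fell stayed called whichever array was left out. A linear term for the Xist level left 618 and 330. Where a gene named from here on lost its call under that term, it is said below. Xist was low only in P1 replicates 2 to 4. The age change under that term therefore rests largely on P1 replicate 1, which stood apart in many genes. Calls lost or gained with it are not the outcome of an adjustment for sex alone.

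The largest increase was that of Pcolce2, an enhancer of procollagen C-proteinase. It was at 5.07, 4.50, 4.87 and 4.53 in P1 replicates 1 to 4 and at 8.41, 7.93, 8.09 and 8.69 at P12. No arrays overlapped, and the change was 3.54 ± 0.18 (SE; adjusted p = 5.19e-06), or 11.6-fold. The ubiquitin ligase adaptor Asb5 was at 5.88 to 6.27 at P1 and at 8.41, 8.71, 8.74 and 8.76 at P12, a rise of 2.57 ± 0.12 (adjusted p = 4.72e-06). Asb5 is among the genes known to be enriched in quiescent satellite cells. Esr1, the oestrogen receptor alpha, was at 8.24, 7.75, 7.56 and 7.54 at P1 and at 10.47, 9.90, 9.61 and 9.89 at P12, a rise of 2.20 ± 0.15 (adjusted p = 2.41e-05). A second bright probe set of Esr1 gave 2.09. The other genes of this group encode proteins of varied roles: the sorting receptor Sorl1 rose by 2.45 ± 0.16, the ephrin receptor Ephb1 by 2.29 ± 0.17, the orphan receptor Gpr50 by 2.10 ± 0.17 and the chemokine scavenger Ackr3 by 1.96 ± 0.14. The other probe set of Gpr50 changed by 0.40. The calcium pump Atp2a3 rose by 1.98 ± 0.12 on its brightest probe set, while its other probe set changed by -0.04. Hemgn, a gene of blood cell precursors, was at 2.19 to 3.93 at P1, near or below the bacterial Trp control probe sets, and at 4.64 to 4.86 at P12, so its rise of 2.03 ± 0.27 starts from a level close to background.

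**Figure D1:**
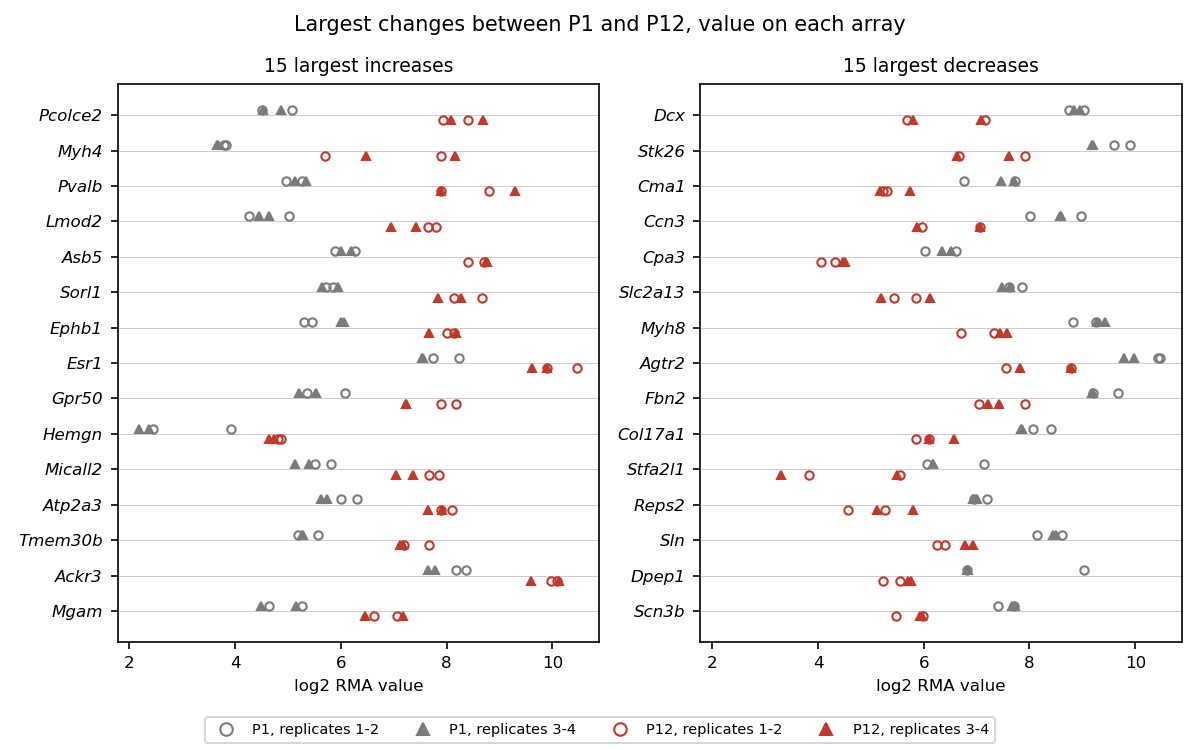
Log2 RMA value (horizontal axis) of the 15 genes with the largest increase (left) and the 15 with the largest decrease (right) on each array, with P1 in grey, P12 in red, replicates 1 and 2 as open circles and replicates 3 and 4 as filled triangles. In every gene shown the P12 arrays lie on one side of the P1 arrays, by the rule that chose them. The P12 arrays of genes including Myh4, Pvalb, Dcx, Stk26, Ccn3 and Agtr2 spread over more than 1 log2 unit.

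The largest decrease was that of Dcx, which encodes the microtubule-binding protein doublecortin. It was at 8.74, 9.03, 8.85 and 8.95 at P1 and at 5.69, 7.16, 7.09 and 5.79 at P12, a change of -2.46 ± 0.31 (adjusted p = 0.000891). P12 replicates 1 and 4 were lower than replicates 2 and 3. A second probe set fell by 2.22, and the other 2, which were dimmer, changed by -0.44 and 0.08. The kinase Stk26 was at 9.18 to 9.91 at P1 and at 6.67, 7.91, 7.61 and 6.62 at P12, again lowest in replicates 1 and 4 (-2.27 ± 0.26, adjusted p = 0.000551). The angiotensin receptor Agtr2 was at 9.78 to 10.47 at P1 and at 7.56, 8.78, 8.78 and 7.82 at P12 (-1.93 ± 0.27, adjusted p = 0.00165). P12 replicates 1 and 4 were the furthest from P1 in 9 of these 15 genes and in 8 of the 15 with the largest increase. The pair crosses the array sets, since replicate 1 belongs to set 1 and replicate 4 to set 2. The remaining decreases included the inositol transporter Slc2a13 (-2.0 ± 0.18), the hemidesmosome collagen Col17a1 (-1.89 ± 0.17), the endocytosis adaptor Reps2 (-1.83 ± 0.20) and the sodium channel subunit Scn3b (-1.79 ± 0.13). The other probe sets of Reps2 and Scn3b changed by -0.40 and -0.19. The dipeptidase Dpep1 read 9.04 in P1 replicate 1 and 6.82 to 6.83 in P1 replicates 2 to 4, against 5.23 to 5.75 at P12. Its change of -1.82 ± 0.41 (adjusted p = 0.0172) lost its call without P12 replicate 1.

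Of 34 genes known from quiescent satellite cells 11 rose, 2 fell and 21 did not pass. The median change over the 34 was 0.32, against 0.02 over all genes, and it was 0.11 in array set 1 and 0.42 in array set 2. Beside Asb5, the calcitonin receptor Calcr, which holds cells in quiescence, was at 8.33, 8.13, 7.78 and 7.87 at P1 and at 8.53, 9.0, 8.94 and 8.69 at P12. Its rise of 0.76 ± 0.14 (adjusted p = 0.00771) set all P12 arrays above all P1 arrays. The chemokine receptor Cxcr4 rose by 0.74 ± 0.15, the BMP antagonist Chrdl2 by 0.74 ± 0.12 and the laminin receptor Dag1 by 0.63 ± 0.12. Cd34, a surface marker of quiescent satellite cells that fibroblasts and endothelial cells share, fell by 0.60 ± 0.15 on the log2 scale (adjusted p = 0.0275). Its call was lost without P1 replicate 1, 2 or 4 or P12 replicate 1. The count of members that rose was 6 without P1 replicate 3, 7 without P1 replicate 4, P12 replicate 1 or P12 replicate 4, and 6 after quantile normalization. The count that fell was 0 to 2 over the arrays left out and 4 on quantile-normalized values. With the Xist term 2 rose, and the calls of Calcr, Cxcr4, Chrdl2, Dag1 and Cd34 were lost, as was that of Cxcr4 after quantile normalization.

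Several genes of differentiation and fusion rose, and few determination factors changed. Myog, the factor of terminal differentiation, was at 11.65, 11.94, 11.11 and 11.37 at P1 and at 12.37, 12.56, 11.94 and 12.80 at P12. The rise was 0.90 ± 0.18 (adjusted p = 0.0113), and P12 replicate 3 equalled the highest P1 array. Mymk, the membrane protein that drives myoblast fusion, was at 8.68 to 9.11 at P1 and at 10.30, 9.91, 10.09 and 10.66 at P12 (1.33 ± 0.16, adjusted p = 0.000793). Lmod2, an actin filament regulator of the sarcomere, rose by 2.86 ± 0.18 from 4.26 to 5.01 at P1, and brain-type creatine kinase, Ckb, by 1.08 ± 0.15. In all, 8 of 28 differentiation and fusion genes rose and 1 fell, with a median change of 0.16; after quantile normalization 5 rose and 3 fell, and with the Xist term 4 rose. Among 20 myogenic determination factors 2 rose and 1 fell, near the shares of 8.42% and 3.47% over all genes. Six4 (1.10 ± 0.18) and Myog rose and Meox2 (-0.64 ± 0.11) fell. The calls of these 3 were lost with the Xist term. Without probe sets of the kinds marked as possibly shared between genes, Meox2 changed by 0.31 and did not pass.

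Myosin heavy chains changed in opposite directions. Myh4, the myosin of the fastest fibres, was at 3.82, 3.79, 3.68 and 3.65 at P1, close to the bacterial Trp controls at 3.48 to 3.64, and at 7.90, 5.70, 6.47 and 8.16 at P12. All P12 arrays were higher (adjusted p = 0.00108), and they spread more widely than the P1 arrays. The fitted difference of 3.32 ± 0.44 is taken from P1 values near background, so the size of the rise is not fixed by it. Myh1, another fast adult myosin, was already at 8.26 to 8.80 at P1 and lay between 9.64 and 10.49 at P12, highest in replicates 1 and 4 (1.62 ± 0.17, adjusted p = 0.000375). Myh2 of oxidative fast fibres rose by 0.99 ± 0.21 (adjusted p = 0.0148), a call lost without P1 replicate 4 or P12 replicate 4. The perinatal myosin Myh8 was at 8.83, 9.25, 9.27 and 9.42 at P1 and at 6.70, 7.32, 7.58 and 7.44 at P12, a change of -1.93 ± 0.15 (adjusted p = 5e-05). The embryonic myosin Myh3 fell by 0.76 ± 0.18 (adjusted p = 0.0237). That call was lost with the Xist term, and also when P1 replicate 2, 3 or 4 or P12 replicate 1 or 4 was omitted. Slow myosin Myh7 was at 5.93 to 6.11 at P1 and at 4.91 to 6.17 at P12 and did not pass (-0.37 ± 0.22, adjusted p = 0.328).

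**Figure D2:**
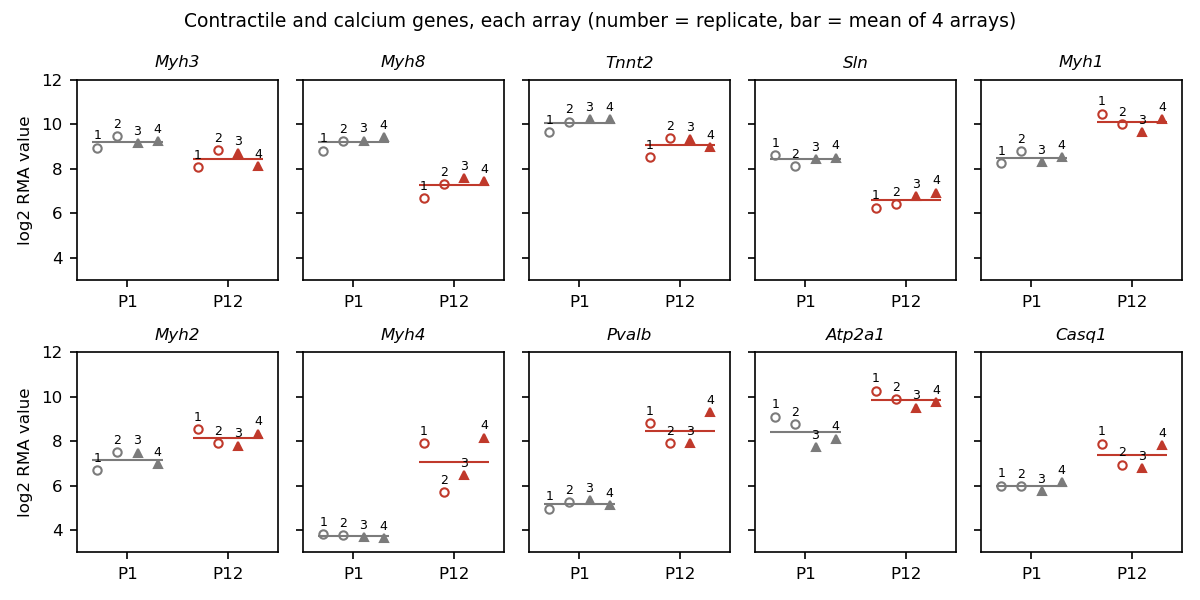
Log2 RMA value of 10 contractile and calcium-handling genes on each array, P1 in grey and P12 in red, with the replicate number above each point and a bar at the mean of the 4 arrays. Myh8, Sln, Myh3 and Tnnt2 are lower at P12 and the other 6 genes are higher, and P12 replicates 1 and 4 are the highest in Myh1, Myh2, Myh4, Pvalb and Casq1.

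The other sarcomere genes followed this division only in part. Of 24 adult fast fibre genes 7 rose and 1, the M-line protein Myom2 (-0.85, adjusted p = 0.00287), fell, with a median change of 0.12. The call of Myom2 was lost with the Xist term and without probe sets possibly shared between genes. The calcium buffer Pvalb rose by 3.29 ± 0.27, from 4.97 to 5.34 at P1 to 8.80, 7.90, 7.90 and 9.30 at P12 (adjusted p = 6.25e-05). The fast calcium pump Atp2a1 was at 9.11, 8.76, 7.72 and 8.11 at P1 and at 10.27, 9.89, 9.51 and 9.76 at P12 (1.43 ± 0.16). In contrast, the fast troponins Tnni2 (-0.12, adjusted p = 0.788), Tnnt3 (-0.17, adjusted p = 0.72) and Tnnc2 (0.07, adjusted p = 0.897) and the creatine kinase Ckm (-0.14, adjusted p = 0.802) did not pass. Of 25 embryonic, slow and cardiac sarcomere genes 1 rose and 7 fell, with a median of -0.37. Cardiac troponin Tnnt2 fell by 1.00 ± 0.18 on the log2 scale and the slow fibre protein Myoz2 by 1.10 ± 0.22. The member that rose was Ankrd1, a stretch-responsive nuclear and sarcomeric protein (1.48 ± 0.11, adjusted p = 3.62e-05). The count that fell was 4 without P12 replicate 1 and 2 with the Xist term, under which Tnnt2 and Myoz2 lost their calls.

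Genes of calcium release changed in both directions. Of 28 measured, 7 rose and 3 fell, with a median change of 0.14. Sln, the inhibitor of the calcium pump, was at 8.62, 8.14, 8.45 and 8.51 at P1 and at 6.26, 6.41, 6.78 and 6.94 at P12, a change of -1.83 ± 0.14 (adjusted p = 3.62e-05). Casq1, the calcium store protein of fast fibres, was at 5.75 to 6.16 at P1 and at 7.89, 6.95, 6.78 and 7.83 at P12 (1.39 ± 0.24, adjusted p = 0.00473). The number that rose fell to 4 without P1 replicate 3 or P12 replicate 1 and to 2 with the Xist term, under which Casq1 lost its call. At the endplate, the receptor subunit Chrna1 rose from 9.02 to 9.56 at P1 to 10.77, 10.63, 10.25 and 10.56 at P12 (1.33 ± 0.12, adjusted p = 0.000129). The fetal subunit Chrng (0.25 ± 0.12, adjusted p = 0.226) and the adult subunit Chrne (0.24 ± 0.13, adjusted p = 0.283) did not pass. Of 19 endplate genes 3 rose and 1 fell. Without P1 replicate 4, P12 replicate 1 or P12 replicate 4 only Chrna1 remained among those that rose (1 gene), and 2 rose without P1 replicate 2 or 3 or P12 replicate 3. The Xist term left 1 that rose.

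Mitosis and cytokinesis genes rose more uniformly than any other list described here: 44 of 49 rose and 0 fell, with a median change of 0.93. In 42 of them all P12 arrays lay above all P1 arrays, against 7.34% of all genes. The median was 1.04 in array set 1 and 0.82 in array set 2. Birc5, the survivin subunit of the chromosomal passenger complex, was at 6.93, 8.01, 8.17 and 8.11 at P1 and at 9.22, 8.78, 9.16 and 10.02 at P12 (1.49 ± 0.24, adjusted p = 0.00321). P1 replicate 1 was the lowest array, and so it was in Cep55 (6.50, 7.51, 7.58 and 7.59), which acts in abscission and rose by 1.40 ± 0.22. The kinetochore subunits Spc24 (1.36 ± 0.19) and Nuf2 (1.28 ± 0.24), the mitotic kinase Plk1 (1.34 ± 0.23) and the central spindle protein Racgap1 (1.33 ± 0.17) also rose. Mki67, the proliferation antigen, was high at both ages: 11.18, 11.82, 11.30 and 11.37 at P1 and 12.68, 12.58, 11.88 and 12.21 at P12 (0.92 ± 0.16, adjusted p = 0.00451). The members that did not pass were Foxm1 (0.11), Pttg1 (0.24), Nusap1 (0.53), Hmmr (0.59) and Dlgap5 (0.85). Of the 44 genes, 24 stayed called whichever array was left out. The count that rose was 28 without P1 replicate 3, 24 without P12 replicate 1 and 26 without P12 replicate 4, and 45 with the Xist term. In sorted bulk cells, a larger share of dividing cells and more RNA per dividing cell cannot be told apart.

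Because these genes moved together, their promoters are shown. RefSeq (build GRCm38.p6) gave 43 windows of 250 bases before the start of 40 of the 49 genes. The CCAAT box, searched as ATTGG on both strands, was present in 30 of the windows (69.8%), against 33.8% of all 32851 windows of that length. The cell cycle homology element, searched as TTTGAA on both strands, was in 14 (32.6%, against 16%), and 12 held both (27.9%, against 5.5%). A CCAAT box is known as the binding sequence of NF-Y and the homology element as that of the DREAM complex, and a match describes letters only. The windows below end at the base before the start and read 5′ to 3′ on the gene's strand, with matches to either motif on either strand in capitals. Mki67, Plk1, Racgap1 and Cep55 are shown as genes of the text above, and Cdc20 and Top2a were added after their motifs were seen because both motifs stand side by side in them.
Mki67, chr7:135716380-135716579, minus strand: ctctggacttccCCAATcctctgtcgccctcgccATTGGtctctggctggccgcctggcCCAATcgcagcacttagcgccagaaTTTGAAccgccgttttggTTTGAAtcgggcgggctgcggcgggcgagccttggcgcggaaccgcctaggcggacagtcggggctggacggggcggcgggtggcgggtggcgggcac
Plk1, chr7:122159335-122159434, plus strand: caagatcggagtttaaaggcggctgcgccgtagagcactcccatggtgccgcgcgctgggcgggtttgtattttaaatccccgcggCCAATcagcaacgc
Racgap1, chr15:99651657-99651756, minus strand: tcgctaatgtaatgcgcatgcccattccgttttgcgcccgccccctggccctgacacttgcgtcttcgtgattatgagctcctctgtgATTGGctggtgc
Cep55, second start, chr19:38054941-38055040, plus strand: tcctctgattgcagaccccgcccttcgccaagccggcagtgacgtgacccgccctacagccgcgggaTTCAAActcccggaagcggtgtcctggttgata
Cdc20, chr4:118437344-118437443, minus strand: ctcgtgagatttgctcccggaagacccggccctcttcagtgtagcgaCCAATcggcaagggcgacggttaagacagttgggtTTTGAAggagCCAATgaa
Top2a, chr11:99024190-99024299, minus strand: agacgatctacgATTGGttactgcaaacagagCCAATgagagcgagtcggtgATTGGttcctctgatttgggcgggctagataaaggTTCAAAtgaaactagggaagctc
Mki67 held 3 CCAAT boxes and 2 homology elements, and in Cdc20 a homology element 18 bases before the start lay between CCAAT boxes at 53 and 8 bases. Plk1 and Racgap1 showed a CCAAT box and no TTTGAA, and Cep55 the reverse. Birc5, the gene with the largest rise, and Nuf2 held neither motif as spelled. Cdc20, an activator of the anaphase-promoting complex, rose by 0.93, and Top2a, a topoisomerase of condensing chromosomes, by 0.93. The call of Top2a was lost without P12 replicate 1 or 4 and when its probe sets were averaged, and its adjusted p was 0.05 on quantile-normalized values (limma).

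A smaller part of the genes of other cell cycle phases was called. Of 34 DNA replication and licensing genes 7 rose and 0 fell, with a median of 0.37. The median was 0.46 in array set 1, 0.31 in array set 2 and 0.22 on quantile-normalized values. At most 1 rose with P1 replicate 3, P1 replicate 4, P12 replicate 1 or P12 replicate 4 left out, 2 without P1 replicate 1, 4 without P12 replicate 2 and 12 without P12 replicate 3. After quantile normalization 1 rose, and with the Xist term 14. Among 28 genes of G1 control 6 rose and 5 fell; 3 rose without P1 replicate 3 or after quantile normalization, and 3 fell without P1 replicate 3 or 4, P12 replicate 1 or P12 replicate 4 or with the Xist term. Ccnd1, the D-type cyclin that responds to mitogens, was at 9.22, 9.92, 9.49 and 9.57 at P1 and at 11.72, 11.33, 10.67 and 11.06 at P12 (1.65 ± 0.19, adjusted p = 0.000468). Its relative Ccnd2 fell by 0.84 ± 0.14 on the log2 scale, from 7.68 to 7.96 at P1 to 6.77, 7.20, 6.74 and 7.24 at P12 (adjusted p = 0.00414). Ccne1, the cyclin of the G1/S transition, was at 11.27 to 11.79 at P1 and at 10.39 to 10.89 at P12 (-0.88 ± 0.13, adjusted p = 0.0025), a call lost with the Xist term. The late E2F factor E2f8 rose by 0.83 ± 0.16 and the transcription factor Mybl2 by 0.65 ± 0.10.

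Inhibitors of the cycle rose at the same time: 9 of 16 rose and 0 fell, with a median of 0.41. Gadd45a, a stress-induced growth arrest gene, was at 8.56 to 8.66 at P1 and at 9.83, 9.75, 9.94 and 10.05 at P12 (1.29 ± 0.10, adjusted p = 3.83e-05). Cdkn2c, an inhibitor of the cyclin D kinases, was at 8.62, 9.17, 8.78 and 8.66 at P1 and at 9.90, 9.48, 9.71 and 10.32 at P12 (1.05 ± 0.18, adjusted p = 0.00512). Cdkn3, a phosphatase of Cdk1 and Cdk2 that is itself made in dividing cells, rose by 1.21 ± 0.18. Of the inhibitors best known from quiescent cells, Cdkn1a changed by 0.01 (adjusted p = 0.975) and Cdkn1c by 0.14 (adjusted p = 0.594). Cdkn1b rose by 0.46 ± 0.13 at an adjusted p of 0.0498, which was 0.0536 with the replicate number as a block, and the call was lost with the Xist term, on quantile-normalized values and when any array except P1 replicate 1 was left out. Gadd45a, Cdkn2c and Cdkn3 kept their calls whichever array was left out. The list count was 3 without P1 replicate 3 or 4, 5 without P1 replicate 2, P12 replicate 1 or P12 replicate 4 and after quantile normalization, and 3 with the Xist term.

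**Figure D3:**
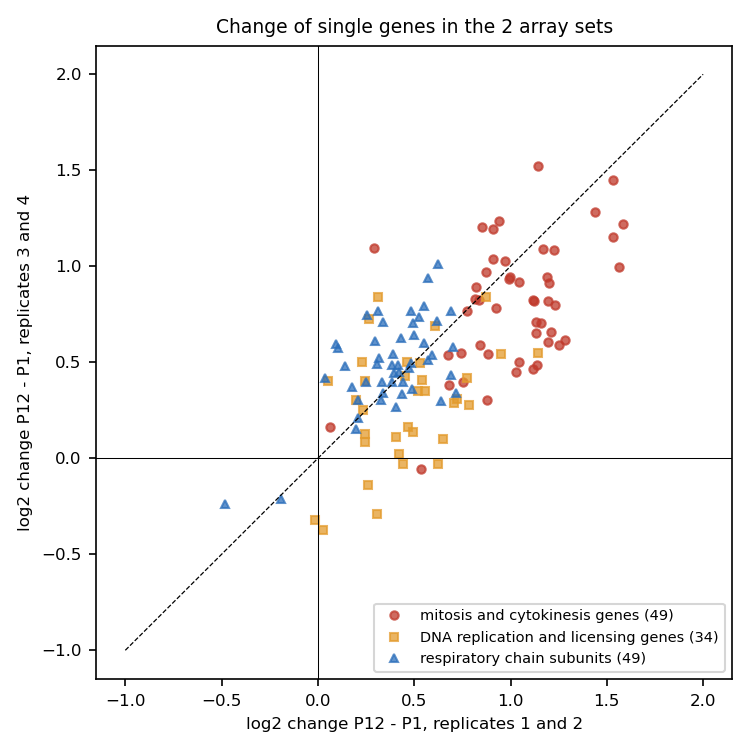
Log2 change from P1 to P12 of single genes in array set 1 (horizontal axis, replicates 1 and 2) and in array set 2 (vertical axis, replicates 3 and 4) for mitosis, DNA replication and respiratory chain genes, with the line of equal change dashed. Most mitosis genes (red) lie further from 0 in both sets than most respiratory chain genes (blue), with medians of 1.04 and 0.82 against 0.40 and 0.49.

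Subunits of the respiratory chain shifted up by small steps. Of 49 measured 26 rose and 0 fell, with a median change of 0.45. The shift was 0.40 in array set 1 and 0.49 in array set 2, but 0.19 after quantile normalization, where 5 rose. Cox5a of cytochrome oxidase was at 11.32, 11.43, 10.82 and 10.92 at P1 and at 11.98, 12.01, 11.64 and 12.13 at P12 (0.82 ± 0.13, adjusted p = 0.00371), a call lost with the Xist term. The complex I subunits Ndufs8 (0.73 ± 0.14), Ndufa9 (0.67 ± 0.14) and Ndufa1 (0.64 ± 0.13) rose as well. The heart and muscle isoforms Cox6a2 (-0.20, adjusted p = 0.301) and Cox8b (-0.36, adjusted p = 0.0653) did not pass. Leaving out P1 replicate 1 gave 13 that rose, P1 replicate 3 gave 6, P1 replicate 4 gave 5, P12 replicate 1 or 4 gave 8 and P12 replicate 2 gave 17, and the Xist term left 10. 5 genes stayed called whichever array was left out.

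Of 31 sterol and fatty acid synthesis genes 9 rose and 0 fell, with a median of 0.38. Sc5d, a late enzyme of cholesterol synthesis, was at 6.21 to 6.31 at P1 and at 7.62, 7.18, 6.98 and 7.74 at P12 (1.11 ± 0.16, adjusted p = 0.00195). Hmgcs1, which makes the precursor of mevalonate, rose by 0.80 ± 0.15 and the sterol carrier Stard4 by 0.82 ± 0.15. The number of sterol genes that rose was 5 without P12 replicate 1 or P12 replicate 4. On quantile-normalized values 8 rose, with a median of 0.29. Of 31 glycolysis genes 3 rose and 1 fell, near the shares of 8.42% and 3.47% over all genes. The phosphofructokinase isoform Pfkp (1.08 ± 0.13) and phosphoglycerate kinase, Pgk1 (0.74 ± 0.13), were among those that rose, and 7 rose without P1 replicate 1. Of 22 endoplasmic reticulum folding genes 9 rose and 0 fell, with a median of 0.36. The disulfide isomerase Pdia3 rose by 0.73 ± 0.13, a call lost with the Xist term. Without P1 replicate 3 2 folding genes rose, without P1 replicate 4 or P12 replicate 4 3 rose, and without P12 replicate 1 4 rose, as after quantile normalization, and with the Xist term 3 rose.

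Of 27 imprinted growth genes 6 fell, 1, Gnas (0.59), rose and 20 did not pass, with a median of -0.16. Gnas lost its call without P1 replicate 3, with the Xist term, when its probe sets were averaged and without probe sets possibly shared between genes. Peg10, a retrotransposon-derived gene active from the paternal allele, was at 9.01, 9.91, 10.33 and 10.22 at P1 and at 8.09, 8.45, 8.58 and 7.66 at P12, a change of -1.67 ± 0.26 (adjusted p = 0.00317). Dlk1, a Notch ligand relative known for its role in muscle growth, was at 11.19, 11.26, 10.29 and 10.75 at P1 and at 9.97, 10.18, 10.12 and 9.89 at P12 (-0.83 ± 0.16, adjusted p = 0.00737). Asb4 (-0.85 ± 0.14), Magel2 (-0.77 ± 0.13) and Ndn (-0.64 ± 0.13) also fell. Igf2 (-0.13, adjusted p = 0.593), Mest (0.01, adjusted p = 0.967) and Meg3 (-0.10, adjusted p = 0.606), which are often counted in the same network, did not pass. After quantile normalization 12 fell, and with the Xist term 1 fell, Peg10, Dlk1, Magel2 and Ndn losing their calls.

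Of 15 fetal RNA-binding and Hmga genes 4 fell and 1, the RNA exonuclease Dis3l2 (1.02 ± 0.19), rose. The call of Dis3l2 was lost when its probe sets were averaged and with the Xist term. Hmga2, a chromatin protein of embryonic growth, was at 6.69, 6.00, 5.86 and 5.80 at P1 and at 4.66, 4.68, 4.82 and 4.68 at P12 (-1.38 ± 0.17, adjusted p = 0.000671). Igf2bp3, an RNA-binding protein of fetal tissue, was at 8.53 to 8.90 at P1 and at 7.14, 7.49, 8.12 and 7.26 at P12 (-1.22 ± 0.17, adjusted p = 0.00154). In the insulin-like growth factor system 0 of 20 genes rose and 4 fell. The protease Pappa, which frees IGF from its binding proteins, fell by 1.05 ± 0.23 on the log2 scale, and the binding protein Igfbp2 by 1.00 ± 0.19. The insulin receptor Insr was at 9.36, 9.0, 8.69 and 8.75 at P1 and at 8.24, 8.29, 8.02 and 7.76 at P12 (-0.87 ± 0.11, adjusted p = 0.0011). Its other probe sets changed by -0.03 and -0.04. Igf1 (0.06, adjusted p = 0.816) and Igf1r (-0.52, adjusted p = 0.0544) did not pass. After quantile normalization 7 fell. With the Xist term 2 fell, and Igfbp2 lost its call.

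In each signalling list described here some genes rose and some fell, where 8.42% of all genes rose and 3.47% fell. Among 38 Wnt pathway genes 2 rose and 6 fell, with a median of -0.13. Sfrp1, a secreted Wnt antagonist, was at 7.05, 7.25, 6.52 and 6.44 at P1 and at 5.82, 6.15, 5.60 and 5.32 at P12 (-1.09 ± 0.12, adjusted p = 0.00038), and the receptor Fzd4 fell by 0.64 ± 0.10. The number of Wnt genes that fell was 3 without P1 replicate 3, P12 replicate 1 or P12 replicate 4, 4 without P1 replicate 4 and 2 with the Xist term, which also ended the call of Fzd4. Among 43 BMP, TGF-beta and activin genes 4 rose and 3 fell, and 2 rose without P1 replicate 3. No gene (0) rose with the Xist term, and 6 fell on quantile-normalized values. The ligand Bmp6 was at 9.18, 8.48, 8.10 and 8.20 at P1 and at 7.14 to 7.31 at P12 (-1.24 ± 0.16, adjusted p = 0.00114).

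Of 27 Notch pathway genes 3 rose and 1 fell, with a median of 0.04; 5 rose without P1 replicate 1 and 1 without P1 replicate 3. None (0) rose with the Xist term, and on quantile-normalized values 1 rose and 3 fell. The ligand Dll1 rose by 0.91 ± 0.13, from 8.13 to 8.98 at P1 to 9.51, 9.83, 9.20 and 9.46 at P12 (adjusted p = 0.00186), a call lost with the Xist term. Of 32 FGF and MAPK genes 6 rose and 2 fell, among them Dusp4, a phosphatase that feeds back on MAP kinases (1.28 ± 0.14), and 3 rose without P1 replicate 3 or P12 replicate 4. Of 32 chemokines, cytokines and receptors 6 rose and 1 fell. In each of these lists 2 genes rose with the Xist term. Beside Ackr3, its ligand Cxcl12 rose by 0.96 ± 0.20, from 6.54 to 7.09 at P1 to 8.17, 7.54, 7.27 and 8.06 at P12. The other 2 probe sets of Cxcl12 changed by -0.10 and -0.09, and its call was lost when they were averaged and with the Xist term. The interferon-induced chemokine Cxcl10 read 7.78 in P1 replicate 1, 6.43 to 6.60 in P1 replicates 2 to 4 and 8.34 to 8.93 at P12 (1.78 ± 0.26, adjusted p = 0.00223). It too lost its call with the Xist term.

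Of 46 guidance genes 7 rose and 8 fell. The Xist term left 3 that rose and 2 that fell, and 4 rose on quantile-normalized values. Ephb1, given above, and the semaphorin receptor Plxnd1 (1.48 ± 0.16) rose. The secreted semaphorin Sema3a was at 7.77, 8.22, 8.18 and 8.15 at P1 and at 6.47, 7.04, 7.03 and 6.39 at P12 (-1.35 ± 0.17, adjusted p = 0.000982). The Robo ligand Slit2 was at 6.71 to 7.19 at P1 and at 5.83 to 6.28 at P12 (-0.86 ± 0.13). Without P1 replicate 3 or 4 3 guidance genes rose, without P12 replicate 1, 3 or 4 4 rose, while leaving out P1 replicate 3 or P12 replicate 1 gave 4 that fell, and P1 replicate 4 or P12 replicate 4 gave 3.

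Each of 4 extracellular matrix lists held genes that fell. Of 28 elastic fibre and small proteoglycan genes 7 fell and 1 rose, with a median of -0.18. Fbn2, the fibrillin of fetal microfibrils, was at 9.20, 9.68, 9.18 and 9.21 at P1 and at 7.05, 7.91, 7.42 and 7.22 at P12 (-1.92 ± 0.18, adjusted p = 0.000121). The small proteoglycans Aspn (-1.73 ± 0.17) and Ogn (-1.56 ± 0.23) and the microfibril protein Mfap2 (-1.08 ± 0.12) fell with it. These calls were among 6 of the 7 that held whichever array was left out. Of 28 basement membrane genes 6 fell and 1 rose. Egfl6 (-1.43 ± 0.16) and the laminin chain Lama4 (-1.05 ± 0.13) fell, and the number that fell was 3 without P1 replicate 3 or P12 replicate 4. It was 9 on quantile-normalized values and 2 with the Xist term. Of 31 matricellular genes and matrix proteases 7 fell and 4 rose, with falls of Ccn3 (-2.05 ± 0.30), Thbs3 (-1.27 ± 0.16) and Thbs2 (-0.78 ± 0.11). Ccn3 lost its call with the Xist term, and 4 of the list fell without P1 replicate 3 or P12 replicate 1. The number of these genes that rose was 1 without P1 replicate 3, 2 without P1 replicate 4 or any of P12 replicates 1, 2 and 4, 2 with the Xist term and 0 on quantile-normalized values, where 9 fell. Among fibrillar collagens and crosslinking genes 5 of 26 fell and 4 rose, while Col1a1 (0.10 ± 0.17, adjusted p = 0.761) and Col3a1 (0.29 ± 0.11, adjusted p = 0.114) did not pass. The collagen-binding protein Sparc rose by 0.72 ± 0.10. Of these collagen genes 3 fell without P1 replicate 3 or 4, 2 fell without P12 replicate 1 or 4, 1 rose without P1 replicate 3 or P12 replicate 1, and 2 rose without P1 replicate 2 or P12 replicate 4. The Xist term left 0 that fell and 2 that rose, and 1 rose on quantile-normalized values.

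**Figure D4:**
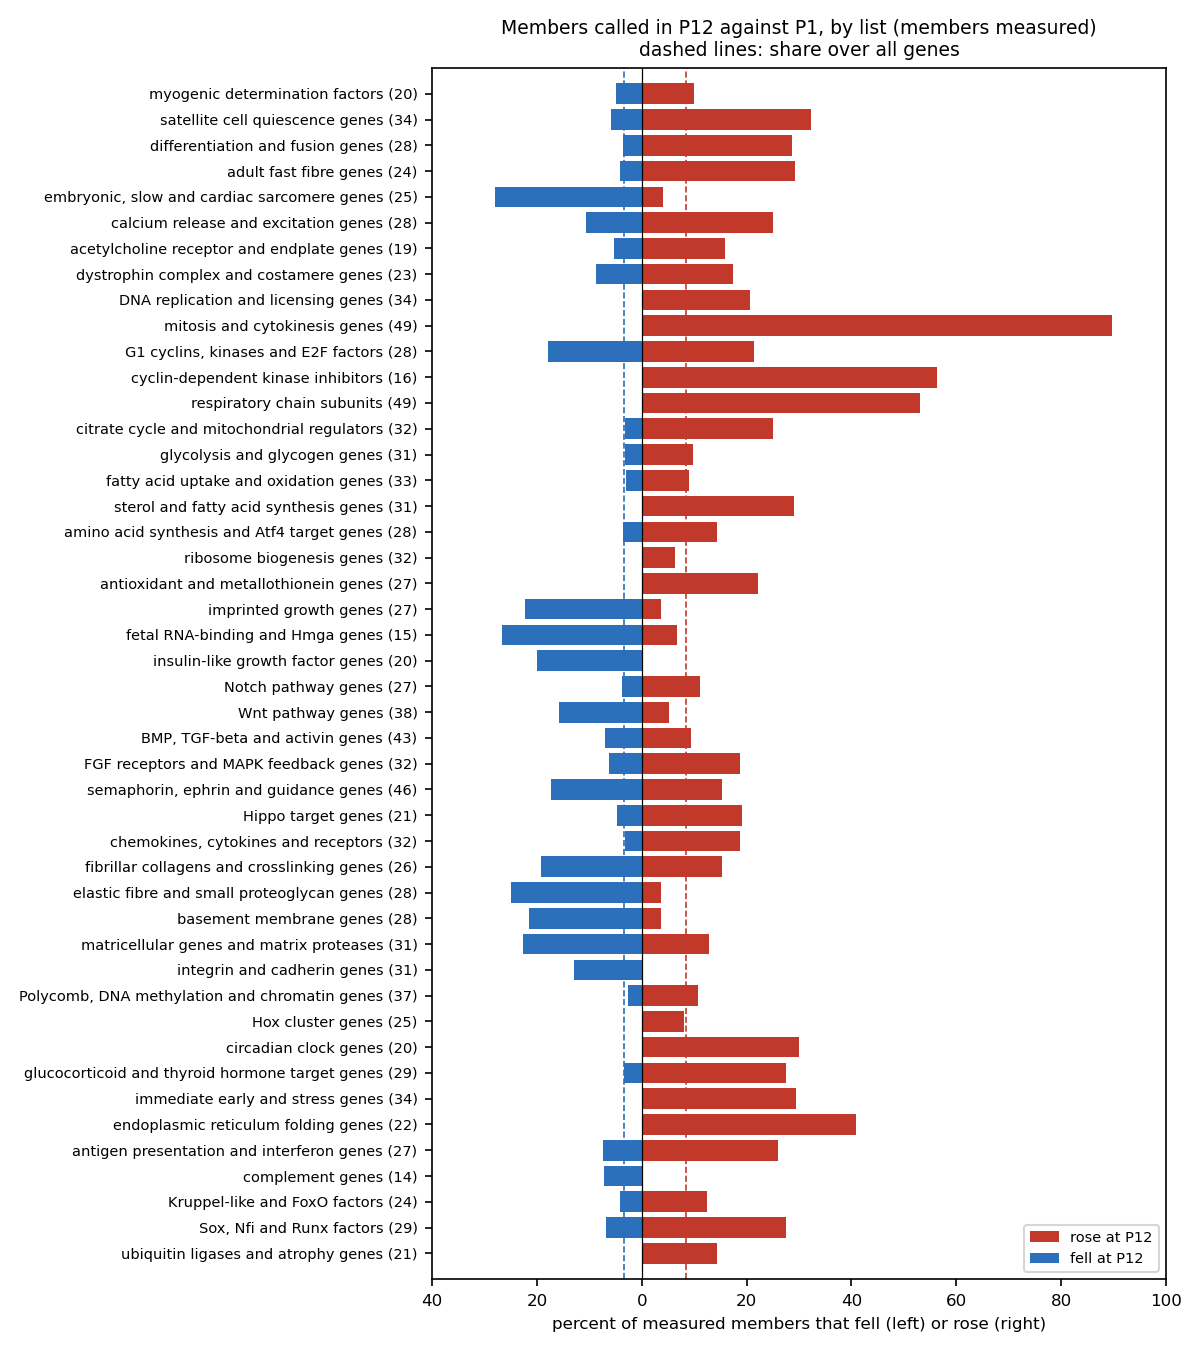
Percent of the measured members of each list, other than the marker lists of other cell types, that rose (red, to the right) or fell (blue, to the left) between P1 and P12 at an adjusted p under 0.05, with the number measured in brackets and the share over all genes, 8.42% and 3.47%, as dashed lines. Mitosis genes stand furthest to the right, and embryonic, slow and cardiac sarcomere genes and fetal RNA-binding genes furthest to the left among the lists shown.

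Of 20 circadian clock genes 6 rose and 0 fell, with a median of 0.22. Dbp, a transcription factor under clock control, was at 8.50, 8.34, 8.13 and 8.01 at P1 and at 9.85, 10.23, 9.32 and 9.30 at P12 (1.43 ± 0.13, adjusted p = 0.000101). The repressor Nr1d1 was at 6.32, 6.25, 6.25 and 5.64 at P1 and at 7.34 to 7.43 at P12 (1.27 ± 0.14), and its relative Nr1d2 rose by 0.89 ± 0.11. Per3 rose by 1.28 ± 0.13 on its brightest probe set, while its 5 others changed by -0.03 to 0.59. The core genes Clock (0.10, adjusted p = 0.645), Arntl (0.28, adjusted p = 0.417), Per1 (-0.09, adjusted p = 0.836) and Per2 (-0.13, adjusted p = 0.717) did not pass, nor did Hlf (0.56, adjusted p = 0.0844) and Nfil3 (0.17, adjusted p = 0.378), which bind the D-box as Dbp does. The labels give no time of day for the sampling. The E-box CACGTG was in 6 of 27 clock gene windows (22.2%, against 6.0% of all) and the D-box TTATGTAA in 1 (3.7%, against 0.8%). The windows with the E-box belonged to Tef, a relative of Dbp that rose (0.62), and to Ciart, Bhlhe41, Cry1 and Per1, which did not pass, while those of Dbp, Nr1d1, Nr1d2, Rora and Per3 held none. The D-box window, of Per3, is shown because it holds the D-box in 2 copies, 205 and 158 bases before the start:
Per3, chr4:151044666-151044885, minus strand: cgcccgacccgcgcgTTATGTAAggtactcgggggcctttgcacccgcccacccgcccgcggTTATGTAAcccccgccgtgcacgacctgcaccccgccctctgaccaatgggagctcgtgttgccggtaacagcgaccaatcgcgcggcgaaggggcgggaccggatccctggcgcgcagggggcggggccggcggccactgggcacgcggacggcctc

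Among targets of glucocorticoid and thyroid hormone 8 of 29 rose and 1 fell, with a median of 0.01. Klf9, a target of both hormones, read 11.32 in P1 replicate 1, 9.75 to 10.28 in P1 replicates 2 to 4, and 11.87, 11.71, 10.86 and 11.69 at P12 (1.21 ± 0.23, adjusted p = 0.00828). With the Xist term Klf9 and the other members that rose lost their calls. The list count was 4 without P1 replicate 3 or 4 and 5 without P12 replicate 4 or after quantile normalization. Of 34 immediate early and stress genes 10 rose and 0 fell. The count ranged from 3 without P1 replicate 3, P1 replicate 4 or P12 replicate 4 and 5 without P1 replicate 2 to 15 without P1 replicate 1. It was 4 after quantile normalization and 1 with the Xist term. Klf6 rose by 0.85 ± 0.10. It kept its call whichever array was left out, with changes of 0.80 to 0.89, and on quantile-normalized values with a change of 0.58.

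Antigen presentation and interferon genes included 7 of 27 that rose and 2 that fell; 4 rose without P1 replicate 3 or 4, and 1 with the Xist term. Ifit2 read 6.82 in P1 replicate 1, 7.56 to 7.68 in P1 replicates 2 to 4 and 8.24 to 8.40 at P12 (0.92 ± 0.17, adjusted p = 0.00663). Ifitm1, a membrane protein of interferon response and germ cells, fell by 1.38 ± 0.18. The class I heavy chains H2-D1 (0.82 ± 0.14) and H2-K1 (0.69 ± 0.14) rose and lost their calls with the Xist term. The family shares sequence, so that a probe set may hybridise to more than 1 member. Among transcription factors, Ebf2 fell by 1.36 ± 0.16, from 6.17 to 6.82 at P1 to 4.83, 5.08, 5.43 and 5.24 at P12, and Nfic rose by 1.00 ± 0.11. The other probe sets of Ebf2, which were dim, changed by -0.15 and -0.11. Those of Nfic changed less than its brightest, by -0.03 to 0.59. Of 37 chromatin genes 4 rose and 1 fell, near the shares of 8.42% and 3.47% over all genes. On quantile-normalized values 2 rose and 3 fell. The remodelling ATPase Smarca4 rose by 0.64 ± 0.12 and the DNA methyltransferase Dnmt3a fell by 0.55 ± 0.11, a call lost with the Xist term and when its probe sets were averaged.

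Markers of other cell types also moved between the ages, so their levels are given with the results above. Of 17 macrophage and monocyte markers 6 fell and 0 rose, and the mean log2 level of the list was 6.65 to 6.96 on the P1 arrays and 6.31 to 6.56 on the P12 arrays. With the Xist term 2 of these fell. The other 11 did not pass, and the changes over the list ran from -1.38 to 0.78. Cd68, a lysosomal protein of macrophages, had the largest fall. It was at 7.31, 7.20, 6.98 and 7.32 at P1 and at 5.88, 5.49, 5.61 and 6.32 at P12 (-1.38 ± 0.17, adjusted p = 0.00083). The 3 brightest members, Csf1r (-0.70), Laptm5 (0.12) and C1qb (-0.55), did not pass. Csf1r and C1qb passed as falls without P1 replicate 1, and another probe set of Laptm5 changed by -1.31. Of 17 neutrophil and mast cell markers 3 fell and 0 rose. With the Xist term, under which the age change rests largely on P1 replicate 1, 9 fell. The mast cell proteases Cma1 (6.77, 7.72, 7.71 and 7.47 at P1, 5.23, 5.31, 5.74 and 5.18 at P12) and Cpa3 (6.02 to 6.61 and 4.06 to 4.52) fell by 2.06 ± 0.19 and 2.03 ± 0.14 on the log2 scale. The neutrophil genes S100a8 and S100a9 read 9.05 and 8.89 in P1 replicate 1, 7.31 to 7.38 and 7.15 to 7.38 in P1 replicates 2 to 4, and 6.40 to 7.60 and 6.49 to 7.56 at P12. The list's mean was 6.16 in P1 replicate 1, at most 5.50 in the other P1 arrays and 4.94 to 5.30 at P12.

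Of 17 fibroblast, fibro-adipogenic and tendon markers 3 fell and 0 rose, at a mean of 7.88 to 8.17 at P1 and 7.65 to 7.84 at P12, with 1 that fell under the Xist term and 5 on quantile-normalized values. Pdgfra, the receptor that marks fibro-adipogenic cells, was at 8.16, 7.91, 7.80 and 7.81 at P1 and at 6.30, 6.65, 6.75 and 6.18 at P12 (-1.45 ± 0.14, adjusted p = 0.000224). This list shares Postn, Cd34 and the collagens with the matrix and quiescence lists above. Endothelial markers overlapped between the ages (1 of 18 rose, 0 fell; 5.72 to 6.46 at P1, 6.04 to 6.62 at P12), as did pericyte and smooth muscle markers (2 of 14 rose, 2 fell; 7.48 to 7.91 and 7.59 to 7.96). Of 11 erythroid markers 3 rose and 0 fell, at 4.94 to 5.23 and 5.24 to 5.47, and at most 1 rose when an array other than P1 replicate 1, P12 replicate 2 or P12 replicate 3 was omitted. Lymphocyte, Schwann cell and adipocyte lists had at most 2 members in a direction. In bulk cells, fewer cells of a type and less RNA per cell cannot be told apart. What part these cells have in the falls of matrix, growth factor and immune genes was not tested.

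**Figure D5:**
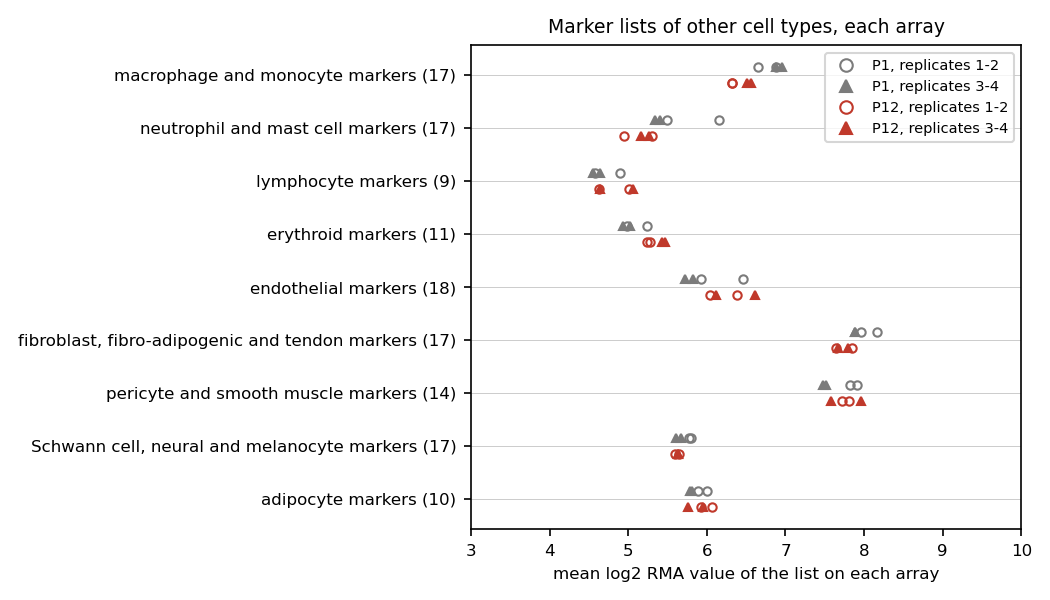
Mean log2 RMA value of each marker list of another cell type (horizontal axis) on each array, with P1 in grey, P12 in red, replicates 1 and 2 as open circles and replicates 3 and 4 as filled triangles. The macrophage and fibroblast lists are lower on every P12 array than on every P1 array. The neutrophil and mast cell list is so by a narrow margin (at most 5.30 at P12, at least 5.34 at P1), with P1 replicate 1 the highest. The erythroid list is higher at P12, also narrowly (at most 5.23 at P1, at least 5.24 at P12).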

How the data were processed

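The authors deposited 1 table with a log2 value for each probe set on each array. Per the submitters' processing notes, the tools were Affymetrix Expression Console, RMA and affy, with no version or order, and the genome build is not given in the sources used here. Arrays give no read depth, so their number limits the precision. Of 45101 probe sets, 34958 carried 1 gene symbol, 932 several and 9211 none. Each of 18193 genes was read from 1 probe set, the one brightest on average across the 11 arrays. The P1 and P12 arrays were fitted with limma 3.58.1 in R 4.3.3 (lmFit on age and array set, then eBayes, with 5 residual and 6.24 prior degrees of freedom). The test was two-sided, with Benjamini-Hochberg adjustment over all genes, and a gene rose or fell at an adjusted p under 0.05. Changes are log2 differences, P12 minus P1, with the SE of the fit.

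Array sets 1 and 2 are replicates 1 and 2 and replicates 3 and 4; the labels do not name them. Arrays of the same number deviated together from their age means (r = 0.146, 0.265, 0.339 and 0.18), but so did arrays of different number within a set (r = 0.153, 0.232, 0.144 and 0.248). After the set means were removed r between same-numbered arrays was 0.01 to 0.08, so the shared deviation went with the set. On simulated data for P12 against P1 over 18193 genes, the fit recovered 28.4% of genes changed by 0.5 and 100% of those changed by 1 or 2, with 6 false calls. Only 67, 67 and 66 genes were changed by 0.5, 1 and 2. The noise was normal and independent between genes and arrays, and no array was made to stand apart. These figures therefore do not give the error rates in the real data.

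The members, the 55 gene lists (88 of 1536 list memberships were not measured) and the alternatives were chosen with earlier results of these data known. Genes named are the 15 largest changes in each direction among called genes whose arrays did not overlap, without unnamed gene models, sex-linked genes and receptor segments, members of the lists with the largest changes, up to 6 of each, and fixed lineage and myosin genes. For other cells' lists the 3 brightest members were also eligible. List members given because they did not pass, and Cdkn1b, Cdc20, Top2a, Myom2 and Gnas, were chosen after their values were seen. Alternatives varied the scaling, the probe set of a gene, the blocks and covariates, the filter on dim probe sets (mean under 5), the eBayes options, array weights and the arrays included.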

Additional observations from a re-analysis of the deposited data

Results flagged for a closer look

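Values that lay far from the other 3 arrays of their age were looked for by the gap to the nearest array over the range. The search took most of the genes named above, Xist and the marker lists of other cells. Of 276 groups of 4 arrays 22 held such a value, and chance alone gives about 1 in 20 groups. P1 replicate 1 gave 11 of them. It was high in Xist at 11.29 (others at most 5.96), Dpep1 at 9.04 (others at most 6.83), S100a8 at 9.05, S100a9 at 8.89, Cxcl10 at 7.78, Slit2 at 7.19 and Hemgn at 3.93, and low in Birc5 at 6.93 (others at least 8.01), Cep55 at 6.50, Ifit2 at 6.82 and Sema3a at 7.77. P1 replicate 2 was high in Col1a1 at 12.08, Hmgcs1 at 11.85, Ndn at 11.66 and Fbn2 at 9.68. P1 replicate 3 was low in Thbs2 at 7.92, and P1 replicate 4 in Nr1d1 at 5.64. The same search over all 298 genes that the naming rule took flagged P1 replicate 1 as high in 14 and as low in 8.

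At P12, replicate 4 was high in Racgap1 at 9.66 (others at most 9.19) and in H2-K1 at 8.88, where the other 3 arrays lay within 8.78 to 8.79. Replicate 1 was low in Asb5 at 8.41, replicate 2 low in Scn3b at 5.47 and replicate 3 high in Hmga2 at 4.82. The cause of these values was not tested.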

How the results depend on the processing

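On the deposited values 1531 genes rose and 631 fell. The counts moved by over 1.5 times without the array set block (840 and 381 on 8 arrays, 824 and 371 with all 11 arrays), within array set 1 (71 and 57), within array set 2 (666 and 241), with the Xist level as a covariate (618 and 330) and after a further quantile normalization (835 and 980). Leaving out each array in turn gave 600 to 1464 that rose and 328 to 629 that fell. Fewer arrays entered the fits within a set and without an array; the cause of the other shifts was not tested. With the replicate number as a block, 1303 rose and 563 fell, and 17 of the 267 genes that the naming rule took among those called lost the call. Among the called genes whose values are printed in the report, not counting Sdc4, Cdkn1b was the only one it changed. The interaction of age with array set gave 0 genes under each of the 3 alternatives tried (dim probe sets left out, trend and robust options, quantile normalization). Of the same 267 genes, 140 lost the call with the Xist covariate, 52 on quantile-normalized values and 44 when probe sets were averaged per gene. Another probe set was present for 164 of these genes. In 93 another probe set passed in the same direction, and in 41 some probe set had the opposite sign. An opposite probe set passed in 0. Signs turned in 7 cases: Meox2 (0.31), Asph (-0.11), Uqcrq (-0.0143), Laptm5 (-1.31) and Cd8a (0.54) without _x_at and _s_at probe sets, Cd8a (0.0208) when its probe sets were averaged, and Srxn1 (-0.0442) with the Xist covariate.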
